A study of Homo sapiens with 4 samples.

Results

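The genes described here are 45 human genes of MHC class I antigen presentation and of the interferon response, of 58302 genes listed for 4 RNA-seq libraries. They were chosen by name, with earlier results of these data known, and every one of the 45 symbols matched a gene in the files. Of these, 17 are presentation genes (the class I molecules and the proteins that make, carry, trim and load their peptides) and 28 are interferon-stimulated genes. PolyA RNA came from T24, an established human line from a urothelial carcinoma of the bladder. In 2 libraries, knockout 1 and knockout 2, the cells were a stable T24 line with IGF2BP3 disrupted by CRISPR/Cas9, and in 2, control 1 and control 2, the cells were labelled control with no further description. IGF2BP3 encodes an RNA-binding protein that binds messenger RNAs, many of them carrying the base modification N6-methyladenosine, and the comparison asks how T24 expression differs when it is lost. Whether 2 libraries of a group stem from different cultures or clones is not stated in the labels, so a p-value measures only the spread between these libraries, which may be technical.

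Class I molecules carry short peptides from inside the cell to its surface for T cells to inspect. Each is a heavy chain, encoded by an HLA gene, paired with beta-2-microglobulin, and it receives peptides that the proteasome cuts, that the TAP transporter moves into the endoplasmic reticulum, that ERAP enzymes trim and that tapasin helps to load. Interferons raise many of these genes together with a wider set of antiviral genes, mainly through STAT and IRF transcription factors that bind the interferon-stimulated response element (ISRE) in promoters. Tumour cells often carry altered levels of this pathway.

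Letters of this promoter element were searched for in presentation and interferon-stimulated genes. Windows are shown for genes that the libraries listed at very different levels. The letters searched were 2 copies of GAAA on the same strand with any 2 bases between them, on either strand (TTTC when read on the opposite one), and matches that overlap each other were all kept. The window was 250 bases before to 50 bases after each RefSeq gene start (GRCh38.p14), available for 39 of the 45 genes. The letters were found in 9 of 15 presentation promoters (60%), in 16 of 24 interferon-stimulated promoters (66.7%) and in 3.57% of 35116 promoters of the same length. Capitals mark them below, and each sequence runs 5′ to 3′ on the strand of its gene. TAP1 (chr6:32853655-32853954, minus strand), B2M (chr15:44711267-44711566, plus strand), TAPBP (chr6:33314029-33314328, minus strand), ISG15 (chr1:1013247-1013546, plus strand) and IFIT1 (chr10:89392373-89392672, plus strand) hold them, and PSMB8 (chr6:32844630-32844929, minus strand) does not.
TAP1: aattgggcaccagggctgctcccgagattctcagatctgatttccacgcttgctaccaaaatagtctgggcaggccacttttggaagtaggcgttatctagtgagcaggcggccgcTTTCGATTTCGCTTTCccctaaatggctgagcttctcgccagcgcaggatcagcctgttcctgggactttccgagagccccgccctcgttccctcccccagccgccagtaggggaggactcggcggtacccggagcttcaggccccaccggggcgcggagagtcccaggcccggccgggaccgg
B2M: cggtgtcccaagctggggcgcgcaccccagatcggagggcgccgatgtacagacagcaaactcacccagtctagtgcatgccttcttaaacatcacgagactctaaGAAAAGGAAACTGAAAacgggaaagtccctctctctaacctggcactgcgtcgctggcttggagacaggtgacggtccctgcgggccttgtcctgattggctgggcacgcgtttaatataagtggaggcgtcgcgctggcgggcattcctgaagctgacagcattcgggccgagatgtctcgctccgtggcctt
TAPBP: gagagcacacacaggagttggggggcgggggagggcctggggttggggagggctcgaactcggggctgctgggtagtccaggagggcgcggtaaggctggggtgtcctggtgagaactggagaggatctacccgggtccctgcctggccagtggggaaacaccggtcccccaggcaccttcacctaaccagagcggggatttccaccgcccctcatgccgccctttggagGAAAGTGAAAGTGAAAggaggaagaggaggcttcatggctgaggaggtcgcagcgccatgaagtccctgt
PSMB8: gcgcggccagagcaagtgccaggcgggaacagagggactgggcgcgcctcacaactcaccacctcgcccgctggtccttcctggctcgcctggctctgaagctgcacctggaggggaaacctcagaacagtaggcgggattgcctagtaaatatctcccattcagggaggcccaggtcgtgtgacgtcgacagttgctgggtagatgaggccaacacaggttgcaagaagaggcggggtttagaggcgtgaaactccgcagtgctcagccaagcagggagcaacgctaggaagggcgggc
ISG15: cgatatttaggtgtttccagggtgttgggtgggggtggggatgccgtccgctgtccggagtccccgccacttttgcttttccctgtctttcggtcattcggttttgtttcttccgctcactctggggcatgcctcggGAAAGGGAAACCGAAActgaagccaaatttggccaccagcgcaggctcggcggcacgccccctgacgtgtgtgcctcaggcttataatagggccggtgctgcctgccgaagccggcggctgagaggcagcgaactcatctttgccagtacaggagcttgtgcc
IFIT1: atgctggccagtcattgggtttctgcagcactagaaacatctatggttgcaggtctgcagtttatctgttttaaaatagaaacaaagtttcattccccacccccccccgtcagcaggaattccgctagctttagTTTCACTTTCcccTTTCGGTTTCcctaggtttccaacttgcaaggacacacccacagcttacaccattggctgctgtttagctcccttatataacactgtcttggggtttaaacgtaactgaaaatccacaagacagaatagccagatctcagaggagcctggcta
Genes with these letters and genes without them were both found among those listed at 0. Of the 16 interferon-stimulated genes with them, 9 were listed at 0 in all 4 libraries, as were 4 of the 8 without. Of the 9 presentation genes with them, 0 were at 0 throughout, against 2 of the 6 without, PSMB9 and HLA-G. The letters marked for TAP1 lie upstream of PSMB9 but outside the PSMB9 window (chr6:32853942-32854241). The HLA-G window (chr6:29826224-29826523) ends before the start of that gene in the annotation used for transcript lengths (29826967). Bases outside the windows were not searched, and whether this contrast depends on window placement was not tested. A match of letters is a description of the window and no evidence of binding. Nor is a window without these letters shown to lack the element, since other spacings were not searched. The OAS1 window, counted as without, holds copies of GAAA closer together than the search allowed.

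Values are FPKM, a fragment count divided by transcript length and by library size, as the authors deposited them. Whole reads recovered from them put the gene-assigned reads at 811823 and 1240207 in the knockouts and at 2162179 and 1870884 in the controls, which is shallow. Libraries of the same group differed widely. The Pearson correlation of log2(FPKM + 0.5) over 11463 genes was 0.43 between the knockouts and 0.49 between the controls. Pairs of a knockout and a control gave 0.42 to 0.49. Libraries of a group were thus not clearly more alike than libraries of different groups. In the knockouts 1041 genes had 50 or more reads in one library and none in its replicate, and in the controls 1085 did, so a gene listed at 0 is not shown to be silent. IGF2BP3 itself was at FPKM 0 and 0.190 in knockout 1 and 2, against 2.94 and 21.5 in control 1 and 2 (0 and 1 reads against 27 and 171). Among markers of the line, KRT8, KRT18 and VIM were above 0 in all 4 libraries, KRT7 in 3 and GATA3 in 1. KRT19, EPCAM, TP63 and the 4 uroplakin genes searched were at 0 in all 4. All 11 leukocyte markers were at 0 in every library. Fibroblast markers summed to FPKM 0 and 6.73 in the knockouts and to 14.9 and 0 in the controls, with 3 of 5 at 0 throughout, and endothelial markers were at 0 in all libraries but control 2, where CDH5 stood at 2.72. Leukocytes have high class I and interferon-stimulated gene levels, but a marker listed at 0 is not shown to be absent. Whether leukocytes were present was not tested.

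None of the 45 genes passed the test between knockout and control. The test was limma with trend on log2(FPKM + 0.5), adjusted by Benjamini-Hochberg over the 11463 genes whose mean FPKM reached 1. There 10 genes passed an adjusted p of 0.05 (0.0872% of those tested), 7 of them higher (0.0611%) and 3 lower (0.0262%) in the knockouts. Of the 45, 23 reached that mean and were tested, 12 presentation and 11 interferon-stimulated genes. A gene at low level reaches the mean more easily when 1 group is high, so counts over the tested genes are descriptions and lend no support to a difference. Limma-voom on the recovered reads also called 0 of the 45. At an unadjusted p under 0.05, 1 of the 23 was below in limma and 1 in limma-voom, against 3.91% of all genes tested in limma. With 2 libraries a group the spread of the tested members was wide, with a median SE of 2.56 on the log2 scale. IGF2BP3, the disrupted gene, did not pass either (log2 fold change −3.89 ± 2.83, SE, adjusted p = 0.955 in limma). A gene that did not pass is therefore not shown to be unchanged.

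Presentation genes were listed higher in the knockouts more often than lower. Of all 17, 12 had a higher mean log2 value in the knockouts, 2 a lower one and 3 were at 0 in all 4 libraries. In bulk RNA, fewer cells that express a gene and less RNA of it per cell cannot be told apart. Both knockouts lay above both controls for 7 of the 12 tested, and both below for 0, while 12.1% of all genes tested lay above and 14.4% below in that way. Summed over the 17 genes, FPKM was 388 and 375 in the knockouts, against 210 and 248 in the controls. Similar sums within a group do not mean that its libraries matched gene by gene. TAPBP gave 86.2 to 109 in each library. HLA-C gave 59.0 in knockout 1 and 0.858 in knockout 2, and B2M gave 3.08 in control 1 and 54.1 in control 2. Fitted fold changes were above 0 for 10 of the 12 tested, against 48.2% of all genes tested, with a median log2 fold change of 2.22, against −0.082 over all genes tested.

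**Figure D1:**
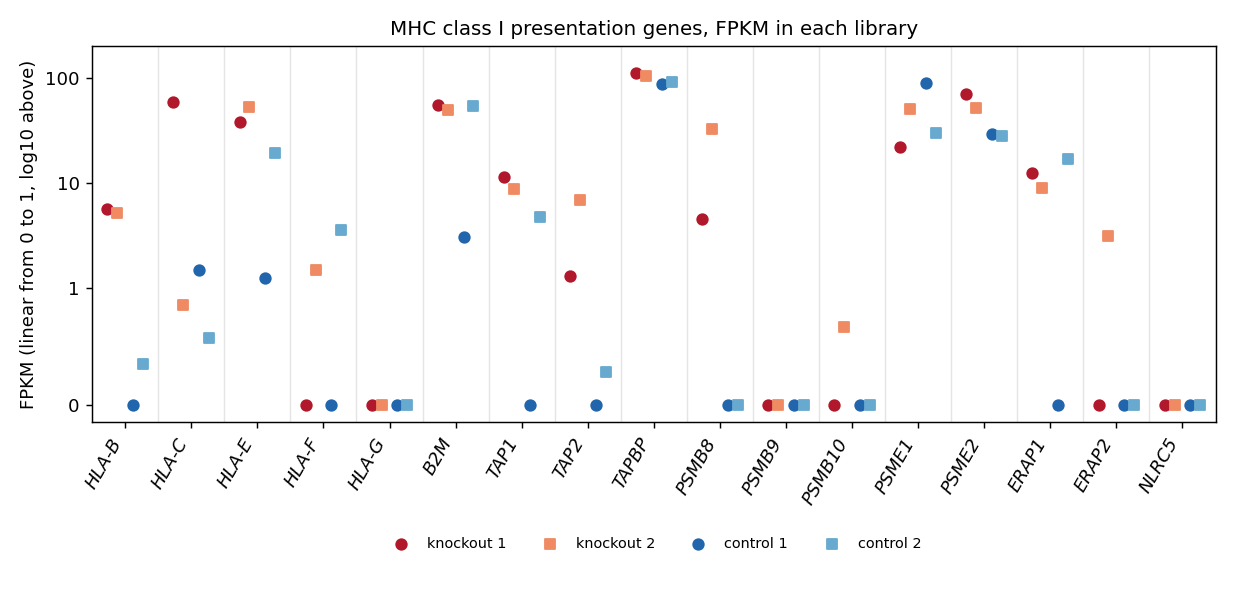
FPKM of the 17 presentation genes in knockout 1, knockout 2, control 1 and control 2, on an axis that is linear from 0 to 1 and logarithmic above; each point is 1 library. Control 1 sits at 0 or at the bottom for most genes, TAPBP is close to level at 86.2 to 109 FPKM, and HLA-G, PSMB9 and NLRC5 are at 0 in all 4 libraries.

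Among the class I heavy chains, HLA-E stood highest in knockout 2 and control 2, and HLA-C in knockout 1 and control 1. HLA-E, which presents leader peptides to natural killer cells, had FPKM of 37.9 and 52.4 in the knockouts, against 1.24 and 19.1 in the controls (80 and 169 reads against 7 and 93). Both knockouts were above both controls, and control 1 was far below control 2. Its log2 fold change was 2.95 ± 1.498 (SE, n = 2 and 2), with the one unadjusted p under 0.05 among the members (0.0492 in limma) and an adjusted p of 0.955. Without control 1 the log2 fold change was 1.20.

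HLA-B and HLA-C encode classical heavy chains that present peptides to cytotoxic T cells. HLA-B had FPKM of 5.57 and 5.21 in the knockouts, against 0 and 0.346 in the controls. The groups do not overlap, but these values stand for 7 and 10 reads against 0 and 1. HLA-C had FPKM of 59.0 and 0.858 in the knockouts, against 1.48 and 0.569 in the controls, so that knockout 1 alone was high and the groups overlapped. Its 90 reads in knockout 1 compare with 2 in knockout 2. HLA-F had FPKM of 0 and 1.48 in the knockouts and 0 and 3.60 in the controls, and HLA-G, the chain of the placenta, was at 0 in all 4. The classical chains are near-identical over long stretches and their reads can be shared, so each of the values of the 5 HLA genes is uncertain.

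B2M, the light chain common to all class I molecules, was even in 3 libraries and low in 1. It had FPKM of 54.3 and 49.0 in the knockouts, against 3.08 and 54.1 in the controls. Control 2 was as high as knockout 1, so the groups overlapped. The log2 fold change of 1.90 ± 1.22 (SE, adjusted p = 0.955 in limma) rested on control 1, and without that library it was −0.066.

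Peptide transport and loading genes split into 1 steady gene and 2 low ones. TAPBP, which encodes tapasin, was the most abundant of the 17 by mean FPKM, with 109 and 103 in the knockouts and 86.2 and 90.7 in the controls. The knockouts were above the controls, by a log2 fold change of 0.26 ± 0.75 (SE), and the values rest on 334 to 701 reads per library. TAP1, one chain of the transporter that pumps peptides, had FPKM of 11.2 and 8.72 in the knockouts, against 0 and 4.70 in the controls (27 and 32 reads against 0 and 26). TAP2, its partner chain, had 1.30 and 6.81 in the knockouts, against 0 and 0.282 in the controls (6 and 48 reads against 0 and 3). For both, control 1 was at 0 and the groups did not overlap. The log2 fold changes were 2.69 ± 2.61 for TAP1 and 2.54 ± 2.70 for TAP2 (SE), about the size of their errors, and that of TAP1 was 1.00 without control 1.

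Immunoproteasome genes gave the largest fitted difference of the presentation genes and also 1 gene at 0 throughout. PSMB8, a catalytic subunit that replaces a standard one under interferon, had FPKM of 4.56 and 32.2 in the knockouts and was listed at 0 in both controls. The fitted log2 fold change of 4.69 ± 2.83 (SE, adjusted p = 0.955 in limma) depends on the pseudocount, at 6.94 with a pseudocount of 0.1 and 3.76 with 1, and limma-voom on the recovered reads gave 7.32. PSMB9, its partner in the same particle, was at 0 in all 4 libraries, and PSMB10, the remaining inducible subunit, had 1 read in knockout 2 alone, with 34.8% of its exon bases shared with ENSG00000261884. PSMB8 and PSMB9 lie with TAP1 and TAP2 in the class II part of the MHC on chromosome 6, from 32821833 to 32859585 (hg38). The RefSeq promoter windows of TAP1 and PSMB9 overlap there, on opposite strands. In GENCODE 29, 20.6% of the exon bases of PSMB8 are shared with PSMB8-AS1 or PSMB9 and 32.3% of those of TAP2 with ENSG00000250264, and these 3 genes were at 0 in all 4 libraries. The strand setting of the counting is not given in the sources used here.

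The proteasome activator PA28 is built from the products of PSME1 and PSME2, which pointed in opposite directions. PSME2 had FPKM of 70.2 and 51.8 in the knockouts, against 29.2 and 27.9 in the controls, with 144 to 177 reads per library. The groups did not overlap and the controls were close to each other. Its log2 fold change of 1.06 ± 1.02 (SE, adjusted p = 0.955 in limma) lay between 0.85 and 1.28 with each library left out, and no call was made. PSME1 had FPKM of 21.7 and 50.4 in the knockouts, against 89.2 and 29.6 in the controls. Control 1 was the highest, the groups overlapped, and the log2 fold change of −0.63 ± 1.02 (SE) turned to 0.16 without it.

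ERAP1, which trims peptides in the endoplasmic reticulum, had FPKM of 12.3 and 8.95 in the knockouts, against 0 and 16.9 in the controls. Control 2 was the highest of the 4 and control 1 was at 0, and the log2 fold change of 1.90 ± 2.33 (SE) was −0.66 without control 1. ERAP2, its relative, had FPKM 3.11 in knockout 2 and 0 elsewhere. NLRC5, which drives transcription of class I genes, was at 0 in all 4 libraries.

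Control 1 was often the lowest library for the presentation genes, though it was the highest for PSME1 and control 2 was also near or at 0 for HLA-B, TAP2 and PSMB8. Control 1 was the lowest, alone or tied, for 9 of the 12 tested (75%) and at 0 for 6 of them, while over all genes tested it was lowest for 45.1% and at 0 for 28.3%. Knockout 1 had a larger share of all tested genes at 0, 34.7%, but was at 0 for 1 of the 12. The median log2 fold change of the presentation genes was 2.17 without knockout 1 and 2.12 without knockout 2, beside medians of 0.20 and −0.75 over all genes tested. Without control 1 it was 1.10 (10 of 13 above 0) and without control 2 it was 3.21 (11 of 12), beside −0.38 and 0.48 over all genes tested. The fits without 1 library leave a lone library in a group, which is then assumed to vary like the other group.

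**Figure D2:**
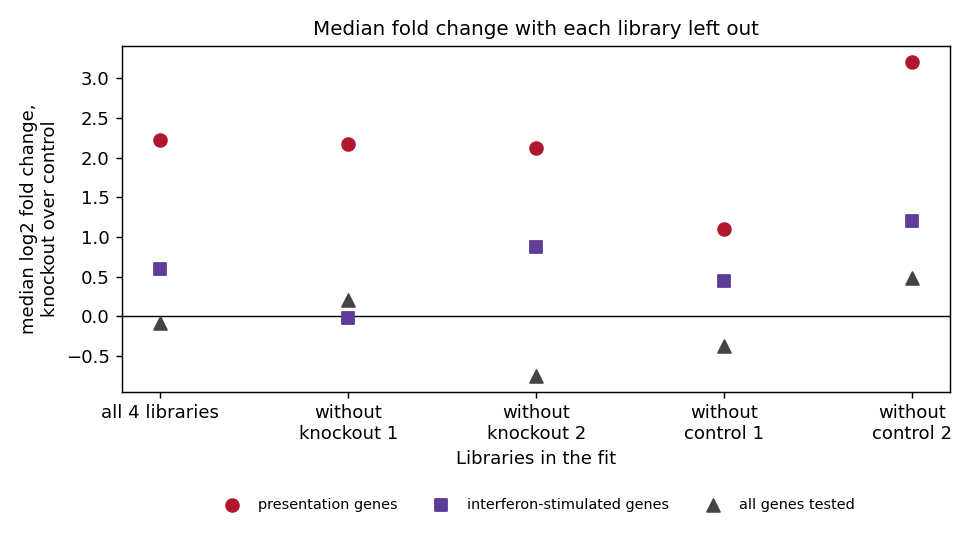
Median log2 fold change, knockout over control, of the presentation genes, the interferon-stimulated genes and all genes tested, with all 4 libraries and with each library left out. The presentation median falls between 1.10 and 3.21, the interferon-stimulated median between −0.023 and 1.19, and the median of all genes tested between −0.75 and 0.48.

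Most interferon-stimulated genes were listed at 0. Of the 28, 16 were listed at 0 in all 4 libraries (57.1%), against 43.4% of 19817 protein-coding genes and 3 of the 17 presentation genes. The 16 include IFIT1, IFIT2 and IFIT3, of a family that binds foreign RNA, MX1, a GTPase that blocks virus replication, OAS2, BST2, which tethers budding virus, IFI27, IFI44, ISG20, DDX60, HERC6, TRIM22, XAF1, SAMD9 and SAMD9L. IRF9, the DNA-binding part of the complex that type I interferon activates, was among them. In GENCODE 29, 1838 of the 3794 exon bases of IRF9 (48.4%) are shared on the same strand with ENSG00000259529. The longest IRF9 transcript is also 1838 bases long, so the share over all exons may understate the overlap. XAF1 shares 38.3% of its exon bases with PRAL on the opposite strand. Both of these overlapping genes were also at 0 in all 4 libraries, and whether reads shared by overlapping genes were left out of the counting was not tested. A count of 0 allows up to 3 reads, which for the 19 members at 0 throughout is 0.518 to 3.63 FPKM in knockout 1, 0.339 to 2.37 in knockout 2, 0.195 to 1.36 in control 1 and 0.225 to 1.57 in control 2. These limits cover counting error only, not reads that a gene shares with an overlapping one, and the gaps between libraries of a group are larger than counting error.

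**Figure D3:**
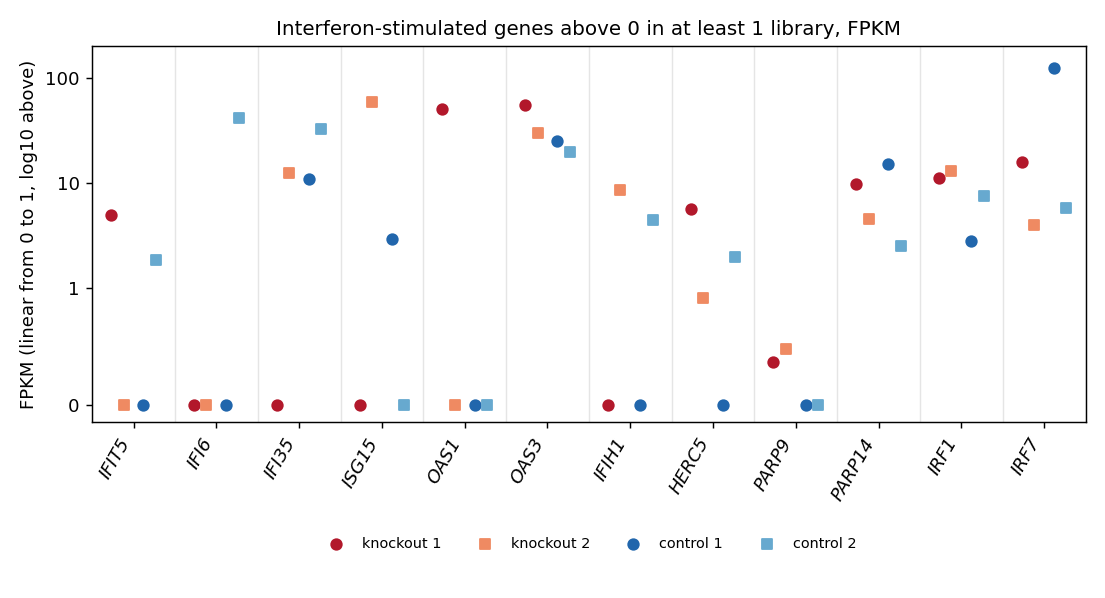
FPKM of the 12 interferon-stimulated genes above 0 in at least 1 library, in knockout 1, knockout 2, control 1 and control 2, on an axis that is linear from 0 to 1 and logarithmic above; each point is 1 library. OAS3, PARP14, IRF1 and IRF7 are above 0 in all 4 libraries, and OAS1 and IFI6 are above 0 in 1.

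Of the 12 above 0 somewhere, 4 were above 0 in all 4 libraries. OAS3, which makes the 2-5A messenger that activates RNase L, had FPKM of 54.8 and 29.6 in the knockouts, against 25.1 and 19.6 in the controls, with 246 to 365 reads per library. Both knockouts were above both controls, with a log2 fold change of 0.85 ± 1.16 (SE, adjusted p = 0.955 in limma) that was 0.41 to 1.29 with each library left out. OAS1, of the same family, had 98 reads and FPKM 49.97 in knockout 1 and was at 0 in the other 3 libraries. IFIH1, which encodes the RNA sensor MDA5, was above 0 in 1 library of each group, at FPKM 8.52 in knockout 2 and 4.46 in control 2.

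The interferon regulatory factors differed in direction. IRF1, a factor that interferon gamma induces and that acts on class I genes, had FPKM of 10.996 and 12.8 in the knockouts, against 2.78 and 7.47 in the controls. Both knockouts were above both controls, with a log2 fold change of 1.28 ± 2.04 (SE). Leaving out control 1 gave 0.64 and leaving out control 2 gave 1.92. IRF7, which amplifies type I interferon genes, had FPKM of 15.6 and 3.93 in the knockouts, against 123 and 5.73 in the controls. Control 1 was high with 547 reads, and the log2 fold change of −1.72 ± 1.53 (SE) was 0.44 without it. PARP14, an ADP-ribosyltransferase, had 9.78 and 4.49 in the knockouts and 14.97 and 2.53 in the controls, groups that overlapped. PARP9, whose product works with DTX3L, had 2 and 4 reads in the knockouts and 0 in both controls.

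The remaining genes were at 0 in at least 1 library each. ISG15, a ubiquitin-like protein that is joined to other proteins, had FPKM of 0 and 58.3 in the knockouts, against 2.93 and 0 in the controls. IFI6 was at 0 in both knockouts, against 0 and 41.3 in the controls. IFI35 had FPKM of 0 and 12.3 in the knockouts, against 10.8 and 32.7 in the controls. Each of these 3 disagreed within a group. Their log2 fold changes were 2.05 ± 2.82 for ISG15, −3.19 ± 2.70 for IFI6 and −2.94 ± 2.15 for IFI35 (SE). HERC5, the ligase that attaches ISG15, had 5.61 and 0.918 in the knockouts and 0 and 1.98 in the controls, and IFIT5 had 4.91 and 0 in the knockouts and 0 and 1.86 in the controls. None passed, with adjusted p-values of 0.955 to 0.9997 over the 11 tested in limma.

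Of the 28 interferon-stimulated genes, 9 had a higher mean log2 value in the knockouts, 3 a lower one and 16 were at 0 throughout. Of the 11 tested, 8 had a fitted fold change above 0 (against 48.2% of all genes tested) and 3 below, and the log2 fold changes had a median of 0.60 and a mean of 0.20. Both knockouts lay above both controls for 2 of the 11, OAS3 and IRF1, against 12.1% of all genes tested, and both below for 0. Summed over the 28, FPKM was 152 and 131 in the knockouts, against 180 and 118 in the controls. The median was −0.023 without knockout 1 and 1.19 without control 2. Whether the presentation genes differ from the interferon-stimulated genes was not tested.

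**Figure D4:**
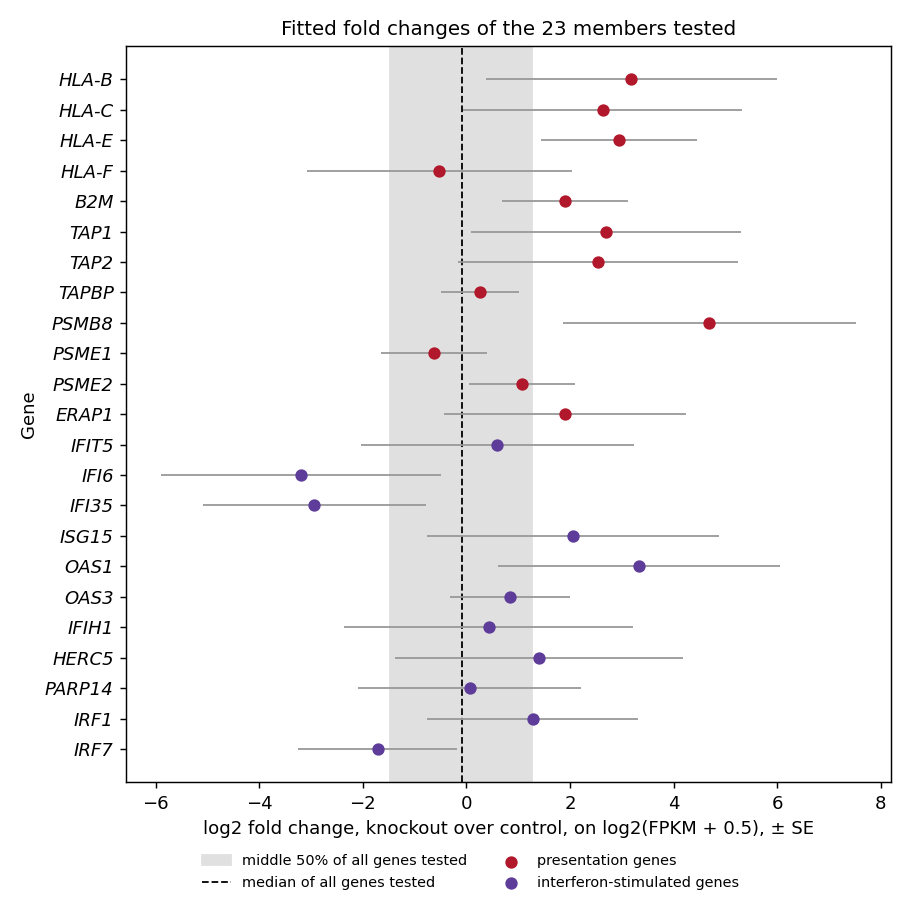
Fitted log2 fold change, knockout over control, with its SE for the 12 presentation and 11 interferon-stimulated genes tested, with the middle 50% and the median of all genes tested. PSMB8 lies highest at 4.69 and IFI6 lowest at −3.19, and 21 of the 23 error bars, all but those of HLA-E and PSMB8, reach the band of the middle 50% of genes, which runs from −1.49 to 1.26.

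Other genes of the pathway gave no call either. Beside the counts of direction that follow, 48.2% of all genes tested had a fold change above 0. Of 7 loading partners and standard proteasome subunits, 6 were tested, 5 with a fold change above 0, and 0 passed in limma. CALR, the chaperone calreticulin, had FPKM of 505 and 433 in the knockouts, against 194 and 422 in the controls (log2 fold change 0.71 ± 0.47, SE). Of 11 interferon receptor and signalling genes, 9 were tested and 4 had a fold change above 0. Both knockouts lay below both controls for 1 of these 9, IRF2, and above for 0, against 14.4% and 12.1% of all genes tested. IRF2, a repressor related to IRF1, was at 0 in both knockouts and at FPKM 39.2 and 15.1 in the controls. Its unadjusted p was 0.0372 and its adjusted p 0.955 in limma. All 3 nucleic acid sensors tested of 5 had fold changes below 0, each smaller than its SE, and their groups overlapped.

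The 6 interferon genes and the 7 MHC class II genes searched were at 0 in every library. Of 20 further interferon-stimulated genes, 11 were at 0 in all 4 libraries, and of the 8 tested 3 had a fold change above 0 and 5 below, with 0 calls in limma. Both knockouts lay below both controls for 3 of the 8 (PLSCR1, UBE2L6 and TRIM21) and above for 2 (IFITM3 and LGALS3BP). Over all genes tested, 14.4% lay below and 12.1% above in that way. LGALS3BP had FPKM of 2.56 and 14.8 in the knockouts and was at 0 in both controls. PLSCR1, a phospholipid scramblase, was at 0 in both knockouts and at FPKM 38.1 and 4.55 in the controls. UBE2L6, the enzyme that conjugates ISG15, was at 0 in both knockouts and at 7.64 and 12.2 in the controls. Over these lists, 1 gene was below an unadjusted p of 0.05 among receptors and signalling (IRF2) and 1 among further interferon-stimulated genes, IFITM3, at FPKM 76.2 and 47.9 in the knockouts, against 1.72 and 42.3 in the controls. Control 1 was far below the other 3 libraries for IFITM3. Of the 12 markers of the line searched, 4 were tested. These 4, KRT7, KRT8, KRT18 and VIM, also had both knockouts above both controls, against 12.1% of all genes tested. KRT8 had the lowest adjusted p of them, 0.0896 in limma. Their relation to the presentation genes was not tested.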

How the data were processed

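The 4 RNA-seq libraries of T24 polyA RNA were analysed. The authors deposited 1 table of FPKM per library; reads were counted with HTSeq, per the file names, on hg38, per the submitters' processing notes, and libraries followed the TruSeq protocol, per the labels' protocols. Not given in the sources used here are the aligner, annotation and strand setting. Members and lists were chosen with earlier results of these data known. Every member may be named, with FPKM per library for those that passed the filter. Multiplied by the longest GENCODE 29 transcript, FPKM were whole multiples of 1 read for 96.4 to 96.5% of genes above 0 (tolerance 0.0001), which gave the reads. Lengths of 395 genes were solved from the values, PSMB8 and ISG15 among them, whose reads are less certain. Names matched 58039 of 58302 genes. Limma 3.58.1 (R 4.3.3) was run where the mean FPKM reached 1, with a pseudocount of 0.5, two-sided. It was also run on simulated reads whose replicates varied much less than those here. That run does not show how limma performs on these libraries. Fold changes on this scale understate changes of low genes. Alternatives covered the pseudocount, filter, scaling, moderation, a replicate block, limma-voom, threshold, biotype and each library left out. Figures used Python 3.11.15 and matplotlib 3.10.9. Promoters came from RefSeq (GRCh38.p14). Since the unit is FPKM, no count test was the main one.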

Additional observations from a re-analysis of the deposited data

How the results depend on the processing

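No member passed in any of 331 refits, which cover 15 alternatives with a fold change for each member that stayed in the fit, and the counts of presentation and interferon-stimulated members called were 0 in all 16. The sign held in every refit for 15 of the 23 members. With 1 library left out it did not for B2M (−0.066 to 3.86), ERAP1 (−0.66 to 4.46), HLA-F (−2.04 to 0.47), IFIH1 (−1.66 to 2.52), IFIT5 (−0.52 to 2.31), IRF7 (−3.87 to 0.44), PARP14 (−1.11 to 1.24) and PSME1 (−1.42 to 0.16), and under limma-voom PARP14 stood at −0.12. Other values kept their sign but moved by over 1.5 times with 1 library left out, namely HERC5 (0.25 to 2.56), HLA-C (2.19 to 5.35), HLA-E (1.20 to 4.69), IFI35 (−5.28 to −0.59), IFI6 (−6.39 to −3.19), IRF1 (0.64 to 1.92), ISG15 (0.66 to 5.49), OAS1 (3.33 to 6.66), OAS3 (0.41 to 1.29) and TAP1 (1.00 to 4.38). The cause was not tested. With a library left out, some members fell under the filter and gave no value. The median of the presentation genes lay between 1.86 and 2.98 in the 11 alternatives with all 4 libraries and between 1.10 and 3.21 with 1 left out. That of the interferon-stimulated genes was 1.15 under limma-voom, 1.06 after quantile normalization and −0.023 to 1.19 with 1 left out. Limma-voom moved the median of all genes to 0.043, against −0.082 in limma on log2(FPKM + 0.5). Over all genes, the 7 higher and 3 lower calls became 11 and 7 at an adjusted p of 0.1, 0 and 0 under eBayes with no trend (unadjusted p under 0.05 for 415), 2 and 0 among protein-coding genes and 0 and 0 with any 1 library left out (578 to 1017). Lower calls were 6 after TPM rescaling, 1 with no filter and 5 with a pseudocount of 0.1. With the replicate number as a block there were 10 higher and 4 lower calls and 0 members. Deviations of same-numbered libraries did not correlate (−0.004 over 11463 genes), so the numbers were not taken as pairs. Depth limits low genes: HLA-B rests on at most 10 reads in a library.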
